A study of Mus musculus with 24 samples.

Results

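Keratin genes of simple and of stratified epithelium, together with Trp63, were followed through ribo-depleted RNA-Seq of retinoic acid differentiated CCE cells and of mouse fetal head (FH). The 10 genes are Krt5, Krt14, Krt15, Krt17, Krt10, Krt7, Krt8, Krt18, Krt19 and Trp63, out of 22380 protein-coding genes counted. They were chosen by their measured RPKM in FH against CCE over all 16 libraries, so the difference between the tissues is given for them as a description, without a test. CCE is a feeder-independent embryonic stem cell line of 129/SvEv mice. Here it was wild type, deprived of LIF and kept in 0.266 µM retinoic acid for 5 days. FH was the whole head of wild-type FVB/N embryos at 14.5 dpc, and no separate animals are stated for it. The RNA of both tissues was depleted of ribosomal RNA with the RiboMinus kit, in 1 round for CCE and in 1 (FH1) or 2 (FH2) rounds for FH. It was broken by RNA-hydrolysis or by cDNA-shearing, and the same 7 cDNA preparations, 4 of CCE and 3 of FH, were sequenced at Vienna-IMP and at Nijmegen. The CCE preparations are technical replicates, and FH has 1 sheared preparation only. Each tissue also had 1 hydrolysed Ribo-Zero library, made from other RNA and sequenced at Vienna-CeMM. In all, 16 libraries were used. The RiboMinus libraries held 920424 to 2473448 unique tags each, and outside the mitochondrial chromosome the Ribo-Zero library of CCE had 26345467 and that of FH 46226046.

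Keratins are the intermediate filament proteins of epithelial cells, and a filament is built from pairs of an acidic type I and a basic type II chain. Krt8 (type II) pairs with Krt18 (type I) in simple epithelia, the cell sheets of a single layer that line ducts, gut and the extra-embryonic endoderm, where Krt7 (type II) and Krt19 (type I) are also found. In stratified epithelia such as epidermis and oral mucosa the basal layer makes Krt5 (type II) with Krt14 and Krt15 (type I). Krt10 (type I) replaces them in the suprabasal layers together with Krt1, and Krt17 (type I) belongs to skin appendages and to periderm and wounded epidermis. Trp63 encodes p63, the transcription factor of the p53 family needed to form stratified epithelium. Its TA and DN forms start from separate promoters.

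Keratin genes lie in clusters of similar sequence. On mm9 the type I members lie on chromosome 11, with Krt10 at chr11:99246568-99250678, Krt15 at chr11:99993072-99997263, Krt19 at chr11:100002124-100009979, Krt14 at chr11:100064476-100068862 and Krt17 at chr11:100117531-100122343, all on the minus strand. The exception is Krt18, which lies beside its partner Krt8 in the type II cluster of chromosome 15. That cluster holds Krt7 at chr15:101241474-101260744 (plus strand), Krt5 at chr15:101537501-101543322 (minus), Krt8 at chr15:101827142-101834773 (minus) and Krt18 at chr15:101858647-101862457 (plus). Trp63 spans chr16:25683849-25892188 on the plus strand. Exons of Krt10 overlap those of the gene Gm11940, and since the tags carry no strand, their reads cannot be separated over the shared bases.

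Only tags with a single place in the genome were listed, so sequence repeated elsewhere cannot gather tags. A 36-base stretch of coding exon in Krt14 shows this. It occurs unchanged in Krt16 and Krt17, and it is 1 of 24 such 36-mers that all 3 genes hold. Another stretch, from Krt8, occurs unchanged within the gene Nlrp4e on chromosome 7, as do 749 of the 1155 coding 36-mers of Krt8. Both are printed 5′ to 3′ on the strand of the keratin, with mm9 positions.
Krt14 (chr11:100065448-100065483), Krt16 (chr11:100107950-100107985) and Krt17 (chr11:100118773-100118808): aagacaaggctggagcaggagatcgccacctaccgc
Krt8 (chr15:101829907-101829942) and Nlrp4e (chr7:24142771-24142806): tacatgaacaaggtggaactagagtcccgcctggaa

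The share of exonic 36-mers found once in the genome was 36.5% for Krt8 and 71.7% for Krt14. It was 86.6% for Krt17, 89.4% for Krt5 and 93.8% for Krt18, and between 96.6% and 100% for Krt7, Krt15, Krt10, Krt19 and Trp63. These shares count exact matches only, whereas RiboMinus tags were aligned with up to 2 mismatches. Fewer bases may therefore be reachable than counted here. Of the 1280 36-mers of Krt17, for example, 344 lie within 2 mismatches of Krt14. Levels are given as RPKM, the tags per kilobase of exon scaled to the unique tags of the library, and for Krt8 and Krt14 this unit understates the level in proportion to the bases that no unique tag can reach. The same loss applies to every RiboMinus library, so it does not enter the ratio between them.

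In the 7 preparations, the keratins of stratified epithelium were high in FH and those of simple epithelium were high in CCE. The summed level of Krt5, Krt14, Krt15, Krt17 and Krt10 lay between 202 and 238 RPKM in FH and between 3.87 and 6.95 in CCE. For Krt7, Krt8, Krt18 and Krt19 the sum lay between 14.7 and 16.7 RPKM in FH and between 506 and 731 in CCE. For all 10 genes the preparations of the tissues did not overlap, nor did the 16 libraries. Of the 8 members that passed the filter on low values (a mean over 3 RPKM in at least 1 tissue) the preparations of all 8 were apart, against 56.2% of the 10306 genes that passed. This repeats how the genes were chosen, and nothing is read from it. By limma 19.9% of all genes were higher and 34.8% lower in FH, and for the members no such call is given. Krt7 and Trp63 did not pass the filter. In RNA of whole tissue, more cells of a type and more RNA per cell cannot be told apart.

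**Figure D1:**
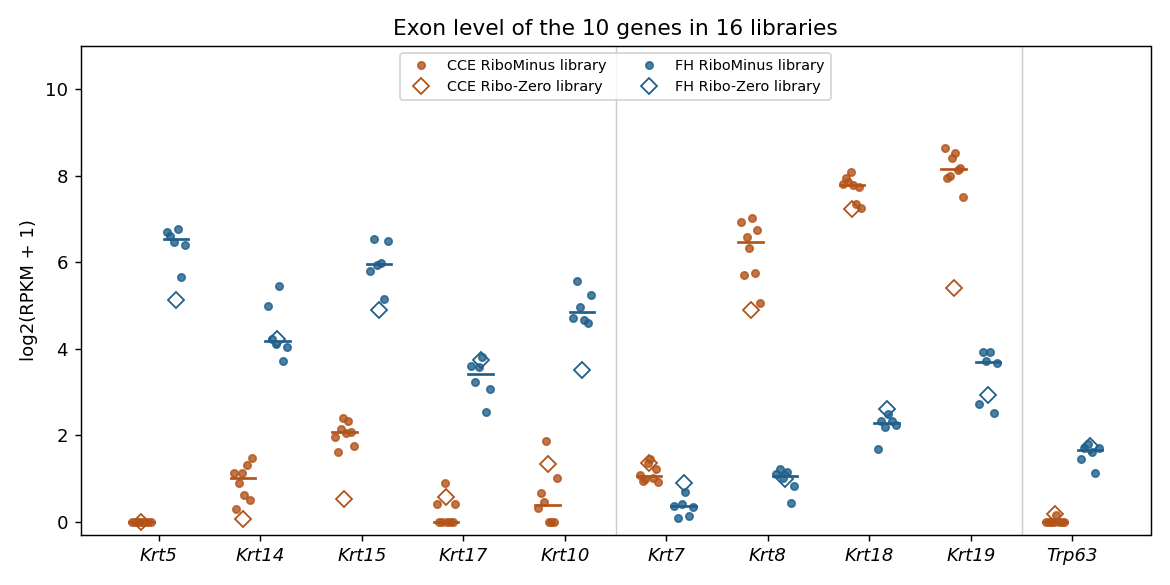
Exon level as log2(RPKM + 1) of each of the 10 genes, with 1 filled point per RiboMinus library (8 CCE, 6 FH), a line at their median and an open diamond for the Ribo-Zero library of each tissue. The CCE and FH points of every gene are apart, with Krt5 at 0 RPKM in every CCE library and at 49.2 to 109 in the FH RiboMinus libraries, and Krt18 at 153 to 271 RPKM in CCE and 2.21 to 4.66 in FH.

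Krt5, the basal type II keratin, had no tag in any CCE library. In FH its preparations had 76.5 RPKM (FH1 hydrolysed), 105.9 (FH1 sheared) and 85.0 (FH2 hydrolysed), a mean of 89.1 ± 15.1 (SD, n = 3). With the CCE group at 0, FH was at least 817-fold higher in the pooled RiboMinus libraries, taking 3 tags over the group as the floor. In the Ribo-Zero libraries Krt5 had 0 tags in CCE and 34.1 RPKM in FH, at least 655-fold higher by the same floor in that library.

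The partners of Krt5 were present in both tissues, at low level in CCE. Krt15 had 2.80, 3.00, 3.16 and 3.31 RPKM in the CCE1 hydrolysed, CCE1 sheared, CCE2 hydrolysed and CCE2 sheared preparations, and 67.2, 58.6 and 74.0 in FH1 hydrolysed, FH1 sheared and FH2 hydrolysed. Pooled over libraries it was 22.5-fold higher in FH. Of the keratins of stratified epithelium among the members, Krt15 had the highest mean in the CCE RiboMinus preparations, 3.07 ± 0.217 RPKM (SD, n = 4), and its lowest CCE preparation was above the highest of Krt14, Krt10 and Krt17. In the CCE Ribo-Zero library Krt10 (1.52 RPKM) was above Krt15 (0.446). There Krt17 had 0.482 RPKM from 20 tags (0.294 to 0.744) and Krt15 21 tags (0.276 to 0.681), so these 2 cannot be ordered.

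Krt14, the other basal type I keratin, had 0.712, 0.952, 1.52 and 0.631 RPKM in the CCE preparations in the same order. In FH it had 15.3 in FH1 hydrolysed, 36.4 in FH1 sheared and 15.9 in FH2 hydrolysed, so that the sheared preparation stood above both hydrolysed ones. The pooled FH level was 20.4-fold that of CCE (95% exact interval 13.3 to 33.1, which covers counting error only). The CCE value rests on 22 tags in 8 libraries.

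Krt10, the suprabasal keratin, had 0.359, 0.160, 1.70 and 0.177 RPKM in the CCE preparations and 36.4, 24.8 and 33.6 in those of FH. CCE2 hydrolysed was above the other CCE preparations and still below every FH preparation. Krt17 had 0, 0.212, 0.565 and 0 RPKM in CCE and 6.83, 12.1 and 9.25 in FH, which is 139 tags in FH against 4 in CCE. Pooled, Krt10 was 52.98-fold (32.8 to 91.5) and Krt17 45.7-fold (17.5 to 170) higher in FH. These folds rest on few CCE tags, 12 of the 17 for Krt10 and 3 of the 4 for Krt17 being from CCE2 hydrolysed. Without the Vienna-IMP library of CCE2 hydrolysed they were 88.9 and 81.2, and without that preparation 133.7 and 135.6.

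Within FH the order of the means per exonic base was Krt5, Krt15, Krt10, Krt14, Krt19, Krt17, Krt18, Trp63, Krt8 and Krt7. The preparations of Krt10 and Krt14 overlapped, as did those of Krt19 and Krt17, and all other neighbours were apart. Single RiboMinus libraries of Krt5 (49.2 to 109 RPKM) and Krt15 (34.7 to 91.7) overlapped, and the hydrolysed numbers may be exchanged between the locations (below). Per base that a unique tag can reach, the mean of Krt14 (38.4) was above that of Krt10 (37.0). Likewise Krt17 (13.3) was above Krt19 (12.4) and Krt8 (3.28) above Trp63 (2.16). The ratio of Krt5 to the sum of its basal and appendage partners Krt14, Krt15 and Krt17 was 0.856, 0.988 and 0.857 in the FH preparations. Counting only bases that a unique tag can reach, it was 0.852, 0.920 and 0.854. The ratio of Krt5 to Krt14 alone varied more, from 2.91 in FH1 sheared to 5.34 in FH2 hydrolysed.

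Per exonic base, Krt19 was the most abundant member in the CCE RiboMinus preparations and Krt18 in the CCE Ribo-Zero library (149 RPKM against 41.2). Per base that a unique tag can reach, Krt8 was above Krt19 in CCE2 sheared (333 against 319). Krt19 had 259, 385, 248 and 271 RPKM in the CCE preparations, with CCE1 sheared above the other 3, and 10.2, 9.70 and 11.9 in those of FH. Krt18 varied less between the CCE preparations, with 214.7, 221, 203.9 and 221.3 RPKM, and had 4.04, 3.40 and 3.64 in FH. These values sum both locations. The hydrolysed CCE1 and CCE2 libraries had 247 and 271 RPKM of Krt18 at Vienna-IMP and 162 and 153 at Nijmegen. The sheared ones had 222 and 230 at Vienna-IMP and 220 and 213 at Nijmegen. Pooled, CCE was 26.6-fold higher for Krt19 (23.1 to 30.8) and 57.4-fold higher for Krt18.

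Krt8, the partner of Krt18, had 51.8 and 52.7 RPKM in the hydrolysed CCE preparations and 123.6 and 100.4 in the sheared ones. In FH it had 0.895, 1.17 and 0.897, and the pooled CCE level was 82.7-fold higher. The numbers of the hydrolysed libraries may be exchanged between the locations, since the log2 ratios of number 1 to 2 correlated negatively (r = -0.45 across genes in CCE). With the numbers exchanged the hydrolysed CCE preparations had 43.1 and 65.6 RPKM of Krt8. Krt7 was scarce in both tissues, with 0.959, 1.33, 1.18 and 1.15 RPKM in CCE and 0.0764, 0.451 and 0.295 in FH. Its length here, 7049 bases, includes a transcript with a retained intron, and the transcript with the longest coding sequence has 4094.

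The order of the means per exonic base in the CCE RiboMinus preparations was Krt19, Krt18, Krt8, Krt15, Krt7, Krt14, Krt10, Krt17, Trp63 and Krt5. Preparations of neighbours were apart down to Krt15 and Krt7 and overlapped from Krt7 on. The ratio of Krt8 to Krt18 was 0.241, 0.559, 0.258 and 0.454 per exonic base, and 0.619, 1.43, 0.663 and 1.16 per base that a unique tag can reach. Per reachable base, the sheared preparations had more Krt8 than Krt18 and the hydrolysed ones less. The CCE means per reachable base were 342 for Krt19, 278 for Krt18 and 272 for Krt8. The preparations of Krt8 then overlapped those of both, and Krt14 (1.62) was above Krt7 (1.27).

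Summed over the 28 type I and 22 type II keratin genes, type I had 461 to 612 RPKM in the CCE RiboMinus preparations and 143 to 153 in those of FH. Type II had 52.96 to 125 RPKM in CCE and 127 to 142 in FH. The ratio of type II to type I was therefore 0.838 to 0.953 in FH and 0.110 to 0.204 in CCE, or 0.853 to 0.926 and 0.294 to 0.551 per reachable base. The 9 keratin members made up 99.6% to 99.8% of the keratin sum in these CCE preparations and 80.4% to 86.6% in those of FH. The Ribo-Zero libraries had less of both types, with 196 RPKM of type I and 30.8 of type II in CCE and 83.5 and 52.0 in FH. Their ratios of type II to type I were 0.157 in CCE and 0.623 in FH, the latter below every FH preparation, and the members made up 98.1% and 86.0% of the sum.

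Among the other 41 keratins, 2 passed the filter on low values. Krt1, the suprabasal partner of Krt10, had 25.9 ± 5.60 RPKM (SD, n = 3) in FH and 0.0342 ± 0.0685 (SD, n = 4) in CCE, a difference of 4.68 on the log2(RPKM + 1) scale. Krt4, a keratin of mucosal epithelium, had 5.58 ± 0.322 RPKM in FH and 0.0642 ± 0.0747 in CCE, a difference of 2.63. Both passed the filter through FH alone, so no test of this difference is given. Krt16, which shares stretches with Krt14, had 2 tags in FH and none in the CCE RiboMinus libraries, with 52.2% of its 36-mers found once.

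Trp63 had 1.80, 1.89 and 2.34 RPKM in the FH preparations, and 1 tag in all CCE RiboMinus libraries. That tag, in CCE1 sheared, gives 0.0399 RPKM there and 0 in the other CCE preparations. The pooled ratio of 225 has an interval of 39.8 to 8932, which shows how little 1 tag fixes it, and without that library FH was at least 68.9-fold higher by the floor of 3 tags. The deeper Ribo-Zero libraries had 2.36 RPKM in FH and 0.122 in CCE, from 27 exonic tags, a ratio of 19.3 (13.2 to 29.5).

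The first coding exons of the TA and DN forms differ, and 4 annotated transcripts start with each. They are shown on the plus strand of mm9, with the start codon in capitals, because tags in these exons tell the forms apart.
Trp63 TA, chr16:25684376-25684437: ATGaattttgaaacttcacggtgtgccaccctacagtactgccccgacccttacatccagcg
Trp63 DN, chr16:25802146-25802187: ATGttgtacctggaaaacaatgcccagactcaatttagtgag

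In FH the tags of the first exons lay mostly on the DN side. In the Ribo-Zero library the DN first exon (186 bases with its untranslated part) held 65 tags, or 7.56 RPKM (5.83 to 9.64). The TA first exons, 851 bases in all, held 6 tags or 0.153 RPKM (0.0560 to 0.332). Per length this is a ratio of 49.6 (21.6 to 140) in favour of DN, and the pooled RiboMinus libraries gave 77.8 from 17 tags against 1 (12.2 to 3251). Over all exonic bases annotated in one form only, downstream exons included, the excess was smaller, at 3.68 (2.30 to 6.14) from 97 tags in DN and 22 in TA in Ribo-Zero and 2.64 (1.02 to 8.09) from 19 and 6 tags in RiboMinus.

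Introns of Trp63 showed the same side. Introns downstream of the DN start held 1155 Ribo-Zero tags over 82647 bases and those upstream 190 tags over 117302 bases, a ratio per length of 8.63 (7.39 to 10.1). In the RiboMinus libraries it was 11.8 (7.50 to 19.6). The upstream introns lie only in TA transcripts, whereas the downstream ones lie in transcripts of either start. In the CCE Ribo-Zero library the DN first exon had 3 tags and the TA first exons 1, too few to compare.

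**Figure D2:**
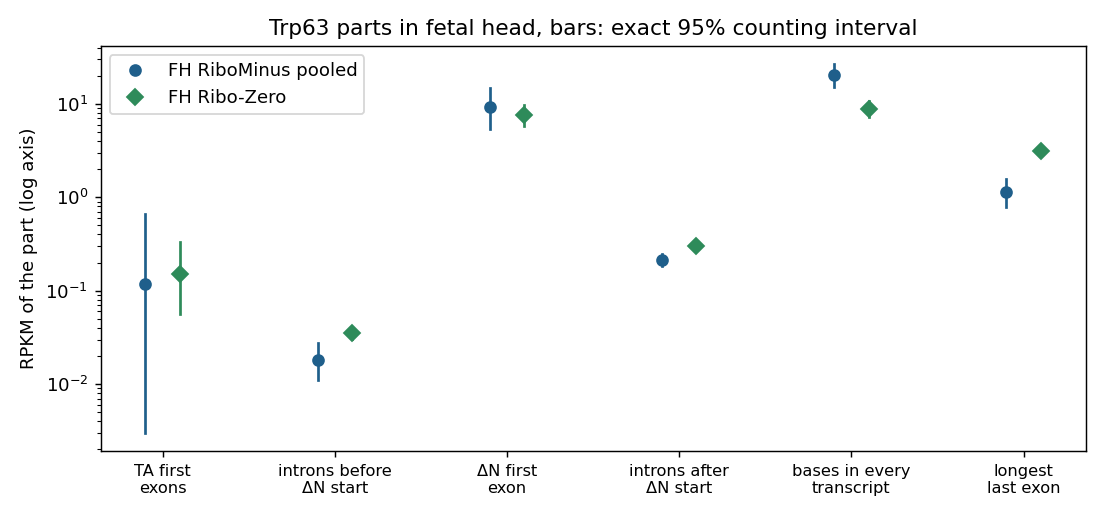
Level of parts of Trp63 in FH, in RPKM on a log axis with exact 95% intervals as bars, for the Ribo-Zero library (diamonds) and the pooled RiboMinus libraries (circles), where ΔN is the DN form. The DN first exon, at 7.56 RPKM in Ribo-Zero and 9.21 in RiboMinus, lies above the TA first exons at 0.153 and 0.118.

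Fragmentation is a measure that did not choose the genes, and here a test applies. Of the 8 members that passed the filter, 2 differed between sheared and hydrolysed preparations at an adjusted p under 0.05 (limma with the tissue as a term), where 46% of all genes did (44.1% of those higher in sheared ones, or 54.1% under median-of-ratios scaling). Krt8 was higher in sheared preparations by 0.73 on the log2(RPKM + 1) scale (SE 0.18, adjusted p = 0.0110). Krt10 was lower by 0.62 (SE 0.22, adjusted p = 0.0413). For Krt18 the difference was -0.01 (SE 0.11), for Krt15 -0.07 (SE 0.12), for Krt19 0.14 (SE 0.16), for Krt5 0.16 (SE 0.13), for Krt17 0.11 (SE 0.22) and for Krt14 0.34 (SE 0.27), with adjusted p between 0.335 and 0.969. The p-values measure the spread between preparations, which is technical in CCE.

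The Krt8 difference was called in 15 of 16 alternative fits. Without CCE2 hydrolysed it was 0.64 with an adjusted p of 0.0506, and with the hydrolysed numbers exchanged 0.71 with an adjusted p of 0.0366. Within CCE alone, where Krt8 is abundant, sheared exceeded hydrolysed preparations by 1.08 (SE 0.18, adjusted p = 0.0263), and 17.6% of the genes tested there were called, of the members 1 of 4. Krt10 was called in 6 of 16 alternatives, with an adjusted p of 0.115 without CCE2 hydrolysed and 0.0777 in a fit on tag counts with limma-voom.

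Within FH the spread comes from the 2 hydrolysed preparations alone, which are of different depletion rounds, and the lone sheared one is assumed to vary like them. By that fit 48.8% of genes and 3 of 7 members were called, which is near the background. Krt14 was higher in the sheared preparation by 1.17 and Krt5 by 0.39, while Krt10 was lower by 0.48. Since 1 sheared preparation shows no spread of its own, this fit cannot decide whether a member differed within FH. Its calls are therefore not read as results. Over both tissues neither Krt14 nor Krt5 was called by limma (above). On tag counts over both tissues limma-voom called Krt14, with a difference of 1.00 (adjusted p = 0.00554). The interaction of tissue and fragmentation, which tests whether the effect differed between tissues, was past the threshold for 0.0776% of genes and for 0 of 8 members. For Krt8 it was -0.88 (adjusted p = 0.377), so a difference between the tissues was not shown.

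The sequencing location made less difference. Vienna-IMP and Nijmegen differed for 0.785% of genes and for 0 of 8 members. The member differences, Vienna-IMP minus Nijmegen, ran from -0.05 for Krt14 to 0.43 for Krt10 (SE 0.21, adjusted p = 0.555).

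The sheared excess of Krt8 was not even along the transcript. The exonic bases were split at their midpoint into a 5′ and a 3′ part of equal length, and 57.4% of Krt8 tags lay in the 3′ part in hydrolysed CCE preparations, 77.2% in sheared ones and 57.05% in the Ribo-Zero library. In CCE the log2 ratio of 3′ to 5′ tags was 1.34 higher in sheared preparations (SE 0.23, limma adjusted p = 0.0288). It rose in 1.28% of genes in that direction and in 1 of 4 members tested. In either direction 12.2% of genes and 2 of 4 members were called, the second being Krt7, whose ratio was lower in sheared preparations by 1.25 (adjusted p = 0.0449) on 105 tags. For Krt18 the difference was -0.32 (SE 0.22) and for Krt19 -0.05 (SE 0.24), neither past the threshold.

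In FH, again with a lone sheared preparation against 2 hydrolysed ones, the same ratio is given without a call. Krt5 had 55.3% of FH tags in the 3′ part in hydrolysed and 68.0% in the sheared preparation, a log2 difference of 0.77. Over both tissues 40.6% of genes were called and Krt19, the member with enough tags in every preparation, was not, at -0.23 (SE 0.21, adjusted p = 0.399). The ratio of Krt19 in CCE stayed near 1 on the log2 scale, with 66.8% of tags in the 3′ part in hydrolysed and 66.7% in sheared preparations. The first 2 of 20 exon bins of Krt19 held 0 tags in the CCE RiboMinus libraries of either kind, although every 36-mer there occurs once, so its level over the remaining bases was higher than the RPKM given.

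**Figure D3:**
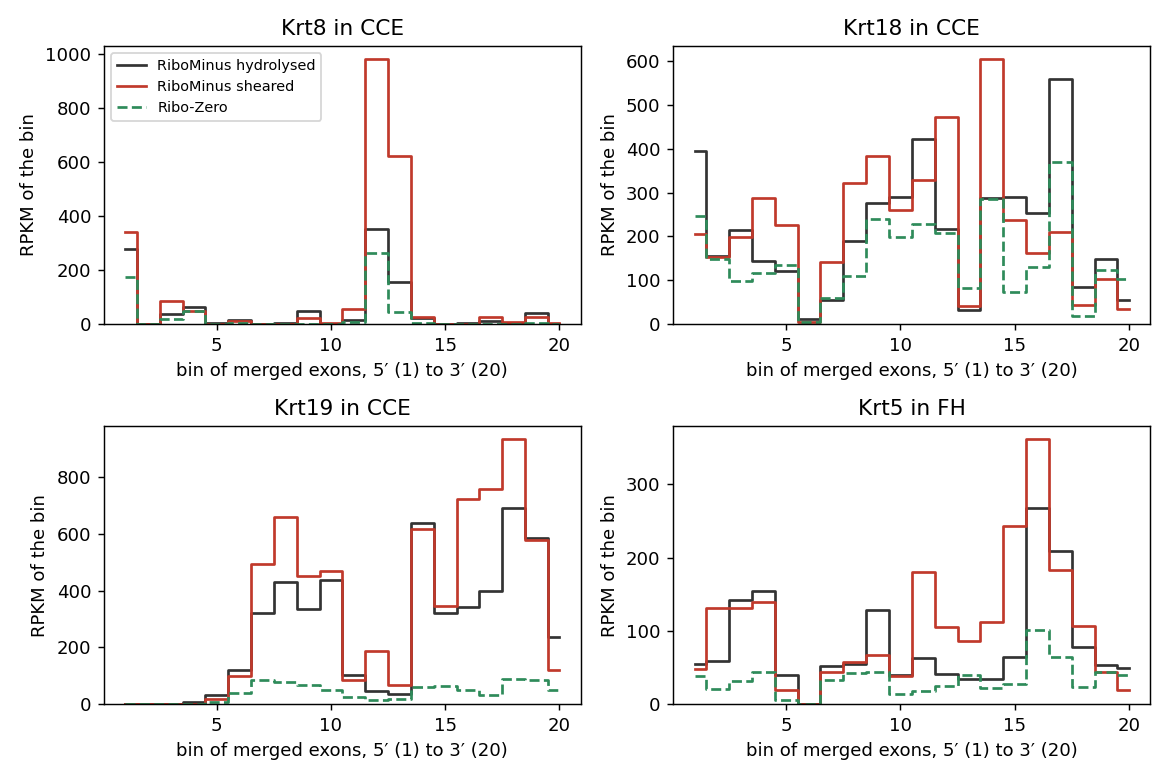
Level of each of 20 equal bins of the merged exons, in RPKM from the 5′ to the 3′ end, for Krt8, Krt18 and Krt19 in CCE and Krt5 in FH, with hydrolysed and sheared RiboMinus preparations pooled by kind and Ribo-Zero dashed. Krt8 is highest in bin 12 with all 3, and bin 1 (276 RPKM in hydrolysed, 340 in sheared and 172 in Ribo-Zero) exceeds bin 13 in hydrolysed and Ribo-Zero, while bins 12 and 13 together hold 48.0% and 49.1% of its tags in the hydrolysed CCE preparations and 71.2% and 70.8% in the sheared ones.

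Most of the Krt8 difference lay in 180 bases of exons 6 and 7, a stretch picked after its values had been seen and so given without a test. It holds the midpoints of 86 of the 544 Krt8 36-mers found once, and tags were placed by their midpoint. The level over these bases was 249 and 259 RPKM in CCE1 and CCE2 hydrolysed and 882 and 713 in CCE1 and CCE2 sheared. Over all other exonic bases it was 29.9 and 29.8 in hydrolysed and 39.6 and 32.5 in sheared preparations. The sheared tags of the stretch had 167 and 156 start positions, strand included, and the hydrolysed ones 96 and 74. These counts are summed over both locations, so a start used at both counts more than once. Over all of Krt8 in CCE, 1156 sheared tags lay on 320 starts, and the most used start held 32. The 693 hydrolysed tags lay on 262 starts, and the most used held 20. The stretch is shown on the transcript strand, and capitals mark each base that begins a 36-mer found once in the genome, 54 of 90 bases in exon 6 and 18 of 71 in exon 7. Between the pieces lie 19 bases of exon 6 without such a start.
Krt8 exon 6, chr15:101828841-101828930: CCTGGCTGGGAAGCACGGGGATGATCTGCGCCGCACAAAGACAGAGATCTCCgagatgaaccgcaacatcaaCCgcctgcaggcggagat
Krt8 exon 7, chr15:101828434-101828504: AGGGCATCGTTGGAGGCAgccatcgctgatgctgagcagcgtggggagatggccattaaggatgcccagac

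The depletion kits were compared within a tissue. Each kit was used on its own RNA. The Ribo-Zero libraries were hydrolysed, sequenced at Vienna-CeMM and made of 51-base tags. The RiboMinus pool held 36-base tags of hydrolysed and sheared preparations from Vienna-IMP and Nijmegen. Kit, RNA, location and tag length therefore cannot be told apart, and the pooled ratios also mix the kinds of fragmentation. There is 1 Ribo-Zero library per tissue, so no test was made. In CCE, Krt19 had 288 RPKM in the pooled RiboMinus libraries and 41.2 in Ribo-Zero, a ratio of 6.98 (6.64 to 7.34), and it was above the Ribo-Zero library in all 8 RiboMinus libraries. Krt15 had a ratio of 6.83 (4.15 to 11.7), again with all 8 libraries above. A ratio over 4 was found in 4.68% of genes in CCE and in 2 of 4 members past the filter, these same genes. For the kits the filter was over 3 RPKM in the RiboMinus pool or in Ribo-Zero. Krt15 passed it through RiboMinus alone (3.04 RPKM pooled against 0.446), where it is high, so its place in this count is partly fixed by the filter.

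Krt18, at 215 RPKM in RiboMinus and 149 in Ribo-Zero, had a CCE ratio of 1.44 (1.39 to 1.51). That of Krt8 was 2.74, with 2.27 without CCE1 sheared and 3.15 without CCE1 hydrolysed. Krt19 thus exceeded Krt18 by 1.21 to 1.74 times in the CCE preparations and was at 0.277 of it in the Ribo-Zero library, which turns the order of the main CCE keratins. Krt10, Krt17 and Krt7 were lower in RiboMinus, with ratios of 0.409 (0.227 to 0.694), 0.404 (from 4 tags against 20, with an upper bound of 1.21) and 0.728. For each of these, 1 of 8 libraries was above Ribo-Zero. For Krt10 and Krt17 that was the Vienna-IMP library of CCE2 hydrolysed, and without it the ratios were 0.243 (0.108 to 0.484) and 0.227 (0.0257 to 0.935). Krt14 had 22 tags against 2. The summed level of 7 mesenchyme and smooth muscle genes, led by Tagln and Acta2, was higher where Krt19 and Krt15 were higher, at 2036 to 2424 RPKM in the CCE RiboMinus preparations and 193 in the CCE Ribo-Zero library. That fall was one of Tagln, from a mean of 1392 to 83.5 RPKM, and of Acta2, from 895 to 41.4, whereas the collagens Col1a1, Col1a2 and Col3a1 and the receptor Pdgfra were higher in Ribo-Zero. The 12 primitive endoderm genes had sums of 440 to 604 RPKM in these preparations and 910 in that library. The part of either in the keratin ratios was not tested.

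Over all genes that passed the filter the median ratio was 1.07 in CCE and 1.37 in FH. In FH a ratio over 4 was found in 6.75% of genes and in 0 of 7 members. The FH ratios were 3.16 for Krt10, 2.52 for Krt5, 2.39 for Krt15, 1.62 for Krt19 and 1.11 for Krt14 (0.888 without FH1 sheared). They were below 1 for Krt8 (0.954), Trp63 (0.870), Krt18 (0.738), Krt17 (0.726) and Krt7 (0.286). Krt8 and Krt18 rest on 17 and 52 RiboMinus tags, and their counting intervals spanned 1 whichever preparation was left out. Without FH1 hydrolysed those of Trp63 (0.763 to 1.14) and Krt17 (0.664 to 1.02) spanned 1 too. Krt19 over Krt18 was 2.52 to 3.26 in the FH preparations and 1.32 in Ribo-Zero, so here the order of both keratins was kept.

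**Figure D4:**
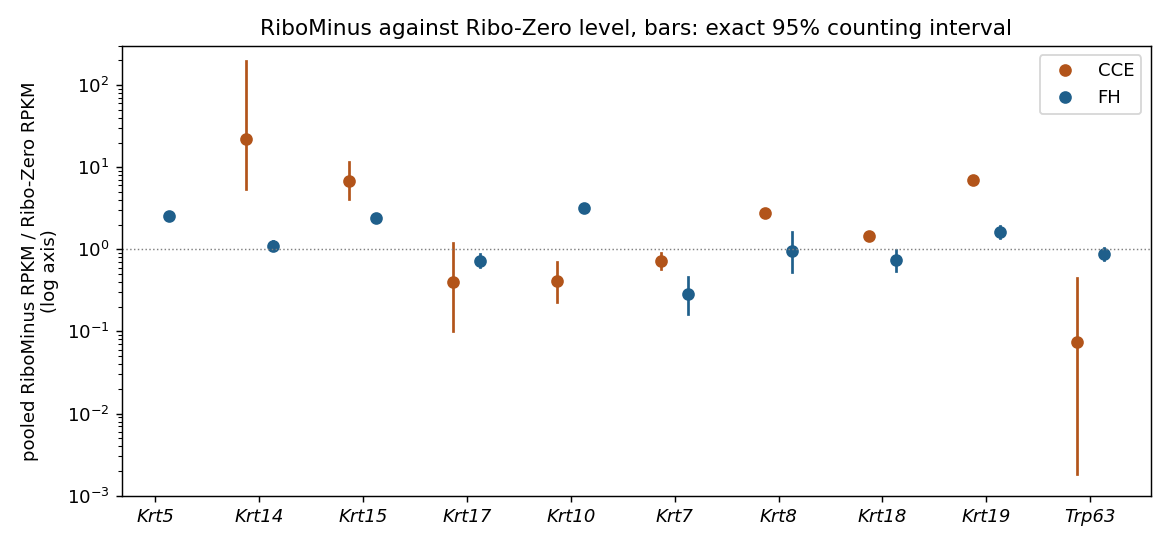
Pooled RiboMinus RPKM over Ribo-Zero RPKM for each gene in CCE and FH, on a log axis with exact 95% intervals as bars and a dotted line at equal level, and no CCE point for Krt5, which had no tag. In CCE, Krt19 lies at 6.98 and Krt18 at 1.44, whereas Krt10 lies at 0.409 in CCE and 3.16 in FH.

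The side of each member was the same with either kit. The members were chosen on the libraries of both kits, Ribo-Zero included. The shared side therefore repeats how they were chosen, nothing is read from it, and the levels are given as a description. In Ribo-Zero, FH was higher than CCE for Krt14 (17.6 against 0.0432 RPKM, the latter from 2 tags), Krt15 (28.7 against 0.446), Krt17 (12.2 against 0.482) and Krt10 (10.4 against 1.52). CCE was higher for Krt8 (28.6 against 0.995), Krt18 (149 against 5.07), Krt19 (41.2 against 6.67) and Krt7 (1.57 against 0.850). The smallest Ribo-Zero ratio was that of Krt7, 1.84-fold (1.56 to 2.18).

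Intron tags set Krt10 in the CCE Ribo-Zero library apart from Krt7, Krt8, Krt15, Krt17, Krt18, Krt19 and Trp63. There the introns of Krt10 held 91 tags and its exons 84, and the intron level per length was 136% (100 to 185) of the exon level. In the FH Ribo-Zero library it was 14.8% (12.1 to 17.9). For Krt18 in CCE the same share was 2.75%, and for Krt19 0.322%. In that CCE library it was 9.12% for Krt7, 7.30% for Krt17, 7.16% for Krt8 and 5.75% for Trp63. Krt15 and Krt14 had 0 intron tags there, the latter with 2 exon tags only. The intron bases counted leave out the span of Gm11940. Only over the exon bases that Krt10 shares with that gene can their tags not be separated.

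The low CCE level of Krt15 was checked against its near copy in the abundant Krt19. For Krt15, 8.77% of its 36-mers lie within 4 mismatches of a Krt19 sequence, and 3 of its 68 CCE RiboMinus tags within an exon came from those.

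Promoter sequence was at hand for 6 of the 10 genes (RefSeq, GRCm38.p6), Krt5, Krt14, Krt10, Krt7, Krt8 and Krt18. The last 100 bases before the start are shown for the pair Krt8 and Krt18, which were high together in CCE, and for Krt5 and Krt10, high together in FH. Capitals mark TATAAA.
Krt5, minus strand, chr15:101712906-101713005: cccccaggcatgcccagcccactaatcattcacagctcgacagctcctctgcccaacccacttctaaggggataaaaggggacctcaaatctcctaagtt
Krt10, minus strand, chr11:99389365-99389464: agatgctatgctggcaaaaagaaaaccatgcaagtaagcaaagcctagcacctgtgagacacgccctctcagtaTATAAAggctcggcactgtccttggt
Krt8, minus strand, chr15:102004343-102004442: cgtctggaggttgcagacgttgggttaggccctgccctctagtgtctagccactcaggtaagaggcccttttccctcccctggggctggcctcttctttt
Krt18, plus strand, chr15:102028116-102028215: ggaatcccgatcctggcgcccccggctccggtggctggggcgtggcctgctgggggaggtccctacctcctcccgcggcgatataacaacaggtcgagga

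The letters TATAAA were found in Krt10 alone of the 6, beginning 26 bases before the start, and 1.99% of 32851 promoters hold them on the sense strand between 40 and 20 bases before the start, and 12.4% in 250 bases on either strand. In 250 bases and on either strand, the AP-1 letters TGANTCA were in 0 of 6 promoters (6.75% of all), the Sp1 letters GGGCGG in 1, that of Krt7 (32.7% of all), and the E box CANNTG in 6 of 6 (66.2% of all). These are matches of letters and not shown binding sites.

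Other genes of epithelia were counted from lists chosen with earlier results known. For the lists and markers below, as over all genes, SEs and calls between the tissues measure the spread between preparations. That spread is technical in CCE, and no separate animals are stated for FH, so differences between cultures or animals are not covered. Of 32 genes of stratified epithelium and basement membrane other than the members, 15 passed the filter, of which 7 rose and 7 fell in FH (limma, adjusted p under 0.05), with a median log2 difference of 0.20. The median of all 10306 genes was -0.34, with 2056 higher and 3582 lower. Under median-of-ratios scaling, whose size factors differ from the library totals by -0.37 (log2, FH minus CCE), the splits were 2637 higher and 2187 lower over all genes and 7 and 4 in this list. Of the higher genes 6, and of the lower ones 2, passed the filter through the tissue where they were high alone and so had to differ. Among these, Krtdap, made in differentiating keratinocytes, had 0 RPKM in CCE and 9.83 ± 5.98 in FH, and Pkp1, a plakophilin of epidermal desmosomes, had 0.0167 ± 0.0333 in CCE and 5.08 ± 0.816 in FH, given without a test. Cdh3 (P-cadherin) fell by 2.75 (SE 0.16), from 42.9 ± 4.46 RPKM in CCE to 5.52 ± 0.386 in FH. Perp, a desmosomal protein and target of p63, fell by 1.67.

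Of 26 genes of simple epithelium and junctions, 23 passed, of which 17 fell and 3 rose in FH, with a median of -1.43 (15 and 4 under median-of-ratios scaling). Cldn6, a claudin of early embryonic epithelia, had 113 ± 6.64 RPKM in CCE and 3.11 ± 0.380 in FH and fell by 4.80 (SE 0.16). Of the called genes 9 of the lower and 2 of the higher passed the filter through 1 tissue alone and so had to differ. Among these, given without a test, the desmosomal Pkp2 had 27.7 ± 7.49 RPKM in CCE and 1.22 ± 0.153 in FH, and the protease inhibitor Spint1 had 26.7 ± 7.38 and 2.00 ± 0.305. Rab25, a small GTPase of epithelial cells, had 0.793 ± 0.135 RPKM in CCE and 4.86 ± 0.517 in FH, and the junction gene Tjp3 had 1.88 ± 0.424 and 3.80 ± 0.415. The claudin Cldn3, past the filter in both tissues, rose by 1.02.

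Other intermediate filament genes moved in both directions. Of 16 such genes 10 passed, with 3 higher and 4 lower in FH and a median of -0.13, which turned to 0.21 under median-of-ratios scaling. Of the higher genes 2 passed the filter through FH alone and are given without a test, the neuronal filament genes Ina (1.14 ± 0.281 RPKM in CCE and 50.9 ± 8.24 in FH) and Nefm (1.30 ± 0.802 and 6.10 ± 4.44). The third, Nes (nestin), rose by 0.59. Des (desmin), Prph (peripherin) and Lmnb1 (lamin B1) fell by 1.60, 1.60 and 1.39. Of 14 other genes of the p53 family and regulators of keratins 11 passed, with 2 higher, 6 lower and a median of -0.94 (4 and 4 under that scaling). Of these, 1 of the higher and 3 of the lower genes passed through 1 tissue alone, among them Satb1 (2.07 ± 0.588 RPKM in CCE and 8.70 ± 0.442 in FH) and the AP-1 subunit Fos (3.11 ± 1.03 and 0.664 ± 0.423), given without a test. Klf4 rose by 1.31 and Trp53 fell by 1.87. Of 76 list genes called, 0 changed sign under that scaling and 10 were no longer called.

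**Figure D5:**
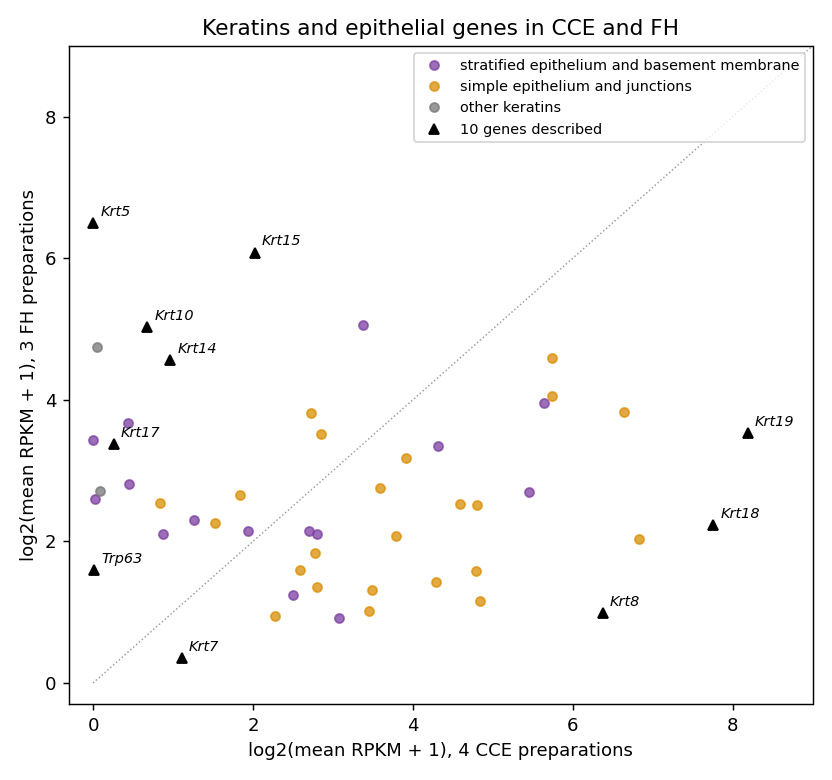
Mean level in the 3 FH preparations against that in the 4 CCE preparations, both as log2(mean RPKM + 1), for the 10 genes (triangles) and the genes past the filter in the lists of stratified epithelium, simple epithelium and other keratins, with a dotted line at equal level. Of the simple epithelium genes 17 of 23 were lower in FH, and of the stratified ones 7 were higher and 7 lower of 15.

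The summed levels of fetal brain and of primitive endoderm markers lay apart between the tissues, whereas those of trophoblast markers overlapped. The summed level of 8 fetal brain genes was 429 to 635 RPKM in FH and 48.4 to 55.9 in CCE, and 7 of the 7 that passed were higher in FH, 3 of them having passed through FH alone. Sox2, one of the 7, had 14.6 ± 4.65 RPKM in CCE and 29.7 ± 12.8 in FH, but the other order in the Ribo-Zero libraries, with 46.5 in CCE and 22.5 in FH. Of 12 primitive endoderm genes 11 fell in FH, from a sum of 440 to 604 RPKM in CCE to 124 to 143, 5 of them having passed the filter through CCE alone, and Gata4 was at 0 in the FH preparations, with 2 tags in the FH and 2008 in the CCE Ribo-Zero library. Trophoblast genes had sums of 8.67 to 16.0 RPKM in CCE and 8.23 to 10.1 in FH, with Gcm1 and Tpbpa at 0 in the RiboMinus preparations of both tissues, and Cdx2 and Hand1 at 0 in those of FH. In the deeper Ribo-Zero libraries Gcm1 had 4 tags in CCE and 0 in FH, Tpbpa 0 and 23, Cdx2 37 and 1, and Hand1 100 and 8. Of the 7 mesenchyme and smooth muscle genes 5 were higher in FH and 2 fell (Tagln by 6.22 and Acta2 by 4.64). Of the 5, 2 passed the filter through FH alone, among them Col1a2, with 1.39 ± 0.230 RPKM in CCE and 44.3 ± 11.5 in FH. In the Ribo-Zero libraries Acta2 had 41.4 RPKM in CCE and 22.5 in FH, and Tagln 83.5 and 5.26. The sum of the 7 genes was 2036 to 2424 RPKM in CCE and 283 to 328 in FH in the RiboMinus preparations. In the Ribo-Zero libraries it had the other order, with 193 in CCE and 394 in FH. The part of cell composition in the keratin levels was not tested.

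The genes most like the members across libraries were ranked by Pearson's r of log2(RPKM + 1) over the 16 libraries, which mainly reflects the tissue difference, as the libraries form a cluster per tissue. To the summed Krt5, Krt14, Krt15, Krt17 and Krt10 the closest were Cryaa (r = 0.994), Stmn3 (0.993) and Kcnd2 (0.992). To the summed Krt7, Krt8, Krt18 and Krt19 they were Lrrn4 (0.992), Cdkn2a (0.992) and Cbx7 (0.990). Cryaa, a lens crystallin, had 74.7 ± 4.12 RPKM in FH and 0.0626 ± 0.125 in CCE, and Cdkn2a had 152 ± 57.3 RPKM in CCE and 0 in FH.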

How the data were processed

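The authors aligned single tags of ribo-depleted RNA to mm9 with Bowtie, per the submitters' processing notes, and deposited 1 line for each tag with a single place in the genome. The deposited score column is constant within a library and was not used. Lines of 16 libraries were counted, and the combined samples and extra lanes were left out. No column of another sample was used (0). Tags were assigned by their midpoint to merged exons of 22380 protein-coding genes (GENCODE, mm9) and scaled to RPKM over unique tags outside the mitochondrial chromosome. Groups follow the labels, with the fragmentation and preparation of each library from the study's methods. The protocol text of the labels describes hydrolysis also for sheared samples.

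Tags of both locations were summed per cDNA preparation. Genes with a mean over 3 RPKM in at least 1 tissue were tested with limma 3.58.1 (R 4.3.3) on log2(RPKM + 1), with Benjamini-Hochberg adjustment over all genes and a threshold of 0.05. The 3′ to 5′ ratio required 20 tags in every preparation compared. Location was tested over the 14 RiboMinus libraries. Fits were tested on simulated data. A count of 0 was bounded with 3 tags, and exact 95% Poisson or binomial intervals cover counting error only, since tags were not marked as molecules. Single libraries are limited to abundant genes by their depth. Unique 36-mers (RiboMinus) and 51-mers (Ribo-Zero) were found by counting every position of mm9 in Python (3.11.15) with numpy version 2.4.6 and pandas version 2.3.3, and intervals came from scipy version 1.17.1.

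The members and lists were chosen with earlier results of these data known. Every member is named, as are the 3 largest called changes in each direction of each list and the 3 genes most like each group by r, except for a result that is not reported here. Alternatives covered the pseudocount, the filter, scaling, repeated positions counted once, exon definitions, limma-voom, replicate blocks, each preparation or library left out, and, added after the data were seen, fits within a tissue and the exons of the longest coding transcript.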

Additional observations from a re-analysis of the deposited data

Results flagged for a closer look

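In 37 groups of 4 to 10 samples the highest or lowest value was compared with the others by Dixon's gap over range, which chance passes in about 1 of 20 groups, and 8 groups held such a value. In CCE2 hydrolysed, Krt10 had 1.70 RPKM against 0.160 to 0.359 in the other 3 CCE preparations. Its Vienna-IMP library had 2.63 RPKM of Krt10 against 0 to 0.998 in the other 7 CCE libraries, and 0.874 RPKM of Krt17 against 0 to 0.332. The log2 ratio of 3′ to 5′ tags of Krt14 in this preparation was 2.17 against 0.42 to 0.58. CCE1 sheared had 385 RPKM of Krt19 against 248 to 271 in the other CCE preparations. For Trp63, the 1 tag of the CCE RiboMinus libraries set the Nijmegen library of CCE1 sheared apart at 0.113 RPKM, the preparation at 0.0399 RPKM and the log2 ratio of 3′ to 5′ tags at 1, with all others at 0. These 3 of the 8 values are the same tag, the ratios of 0 come from preparations with no tag, and the rate of 1 in 20 does not apply to them. Nor is the rate exact for other values on few tags. In the Vienna-IMP library of CCE2 hydrolysed, Krt17 had 2 tags and Krt10 8, and the Krt14 ratio rests on 8 tags against 1. The library and the preparation value of Krt10 also share tags.

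Krt18 moved in opposite directions between the kits in the tissues. The pooled RiboMinus over Ribo-Zero ratio was 1.44 in CCE, where all 8 libraries were above Ribo-Zero, and 0.738 in FH, where all 6 were below. Against the median ratio over all genes, 1.07 in CCE and 1.37 in FH, Krt18 was higher in CCE and lower in FH too. The FH ratio rests on 52 RiboMinus tags, and its counting interval reached past equal level whichever preparation was left out (0.470 to 1.02 without FH1 hydrolysed). The difference between the tissues was not tested.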

How the results depend on the processing

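The direction of each member's difference between the tissues was the same under every alternative run, 6 members being higher in FH. Of 10306 genes tested, 5638 differed between the tissues (4721 to 5792 with a preparation left out). With median-of-ratios scaling the size factors of FH against CCE differed by -0.37 (log2), the majority of called genes turned, as the share higher in FH went from 36.5% to 54.7%, and the share higher in sheared preparations from 44.1% to 54.1%. The medians of the other intermediate filament and trophoblast lists also turned, from -0.13 to 0.21 and from -0.30 to 0.02. For fragmentation 4742 genes were called, with 2829 to 5808 on leaving out a preparation, the fewest without FH1 sheared, and 1537 within CCE. For the 3′ to 5′ ratio 2971 were called, with 1437 to 2991 (the fewest without FH1 sheared), 1107 within CCE and 1723 within FH. For location 81 were called, 131 with median-of-ratios scaling, and 42 to 110 with a library left out (42 and 43 without FH1 sheared of Nijmegen or Vienna-IMP, 43 and 52 without CCE1 hydrolysed of Nijmegen or Vienna-IMP, and 46 without FH2 hydrolysed of Nijmegen). Without the filter on low values 13 other keratins were called in place of 2, with means of at most 3 RPKM for all but those 2, and nothing is read from them.

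With the RNA as replicate block 3475 genes were called for fragmentation and 2208 for the 3′ to 5′ ratio, and 67 for location with the cDNA as block. Library numbers 1 to 6 shared by CCE and FH gave 6243 calls with the replicate block and 6522 without. They do not pair the samples, since same-numbered libraries correlated at -0.61 to 0.50 and 0 of 6 CCE libraries correlated best with their own number. The log2 ratios of number 1 to 2 correlated between locations at 0.45 for sheared CCE, -0.45 for hydrolysed CCE and -0.41 for hydrolysed FH libraries. With the hydrolysed numbers exchanged, 5263 genes were called for tissue and 3399 for fragmentation. The within-tissue fits were chosen after seeing the data. Members below about 1 RPKM rest on few tags.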

Other observations

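Krt20, a keratin of gut and bladder lining, was not among the members and did not pass the filter on low values. It had 0.984 ± 0.437 RPKM (SD, n = 4) in the CCE preparations and 0 in those of FH, and 2.66 RPKM in the CCE Ribo-Zero library against 0.0225 in that of FH. Krt13, a keratin of mucosal epithelium, had 0.435 ± 0.145 RPKM in CCE and 0.791 ± 0.0710 (SD, n = 3) in FH. Both were chosen after their values were seen.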
